A study of Mus musculus with 6 samples.

Results

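The genes described here encode the histone deacetylases (HDACs), the sirtuins and the subunits of the corepressor complexes that carry them. Gene symbols were listed by function, and only those with a row among the 13185 gene rows of the deposited table were kept. The genes described here are the 42 that met this condition. They were 10 zinc-dependent HDACs, 6 sirtuins, 7 subunits particular to the SIN3 complex, 9 particular to NuRD, 2 histone chaperones shared by both, 4 genes of CoREST and MIER and 4 of NCoR. All samples were cells of a mouse T-cell leukaemia of the acute lymphoblastic kind, labelled Notch1 T-ALL, grown on plate-bound anti-CD3 at 2.5 ug/mL with IL-2 at 100 U/mL, which stand in for antigen receptor and growth factor signals. Of the 6 libraries 3 came from cells exposed to panobinostat at 25 nM for 2 h and 3 from untreated cells. The labels gave neither the construct that drives Notch1 nor whether the 3 libraries of a group were separate cultures or animals, so p-values measure the spread between these libraries only, which may be technical.

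Lysine deacetylases remove acetyl groups from histones and other proteins. The zinc-dependent HDACs fall into classes I, IIa, IIb and IV, and panobinostat, a hydroxamate, inhibits them by binding the zinc ion in the catalytic pocket. The sirtuins use NAD+ instead of zinc and are not targets of hydroxamates. HDAC1 and HDAC2 work almost entirely inside complexes, namely SIN3, NuRD, CoREST and MIER, while HDAC3 is the enzyme of the NCoR complex. In the T lineage these complexes are brought to DNA by factors such as Ikaros, GFI1 and REST.

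Expression was read as log2 CPM, where CPM is counts per 1000000 reads, from the polyadenylated ends of transcripts. In a library 1 CPM stood for an estimated 6.01 to 7.74 reads. At that depth Sirt5, the lowest member, rested on an estimated 4 to 11 reads per library and Chd4, the highest, on 6264 to 12042. The authors' values were quantile normalized as judged from the values, so a shift of all genes in one direction could not be seen. All 10 T cell markers were in the table, and their summed level ran from 1277 to 1312 CPM in panobinostat libraries and from 1629 to 1757 CPM in untreated libraries. Markers of other cells were present too. The 6 erythroid markers, mostly haemoglobin genes, summed to 6277 to 6673 CPM in panobinostat and 6671 to 7919 CPM in untreated libraries, and the 7 myeloid markers to 1053 to 1151 CPM and 1294 to 1467 CPM. Of 5 B cell markers 4 were in the table, at 37.1 to 37.7 CPM in panobinostat and 45.4 to 53.2 CPM in untreated libraries, with Pax5 absent, and of 4 stromal and endothelial markers only Pecam1 was, at 59.4 to 79.2 CPM and 88.5 to 122.6 CPM. No marker with a row was at 0 in CPM, but log2 values cannot give 0, so this does not show that each was detected. Every one of these lists was lower on average in panobinostat libraries, and their part in the changes of the members was not tested. In such bulk libraries fewer cells of a type and less RNA per cell cannot be told apart.

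After 2 h of panobinostat 12 of the 42 genes rose and 9 fell (limma adjusted p below 0.05, adjusted over all 12554 tested genes). Over all tested genes 38.3% were called, 19.2% higher and 19.0% lower, against 50% of the members. Members were also more highly expressed (median 5.96 log2 CPM, against 4.16), and the list was chosen with earlier results of these data known. The difference in share was not tested. The shares over all tested genes are the background for every class and list count below. The 12 that rose were Hdac11, Hdac5, Mta1, Sirt2, Hdac1, Chd4, Rbbp4, Rcor1, Mbd2, Sirt7, Sin3a and Sap18. The 9 that fell were Sirt1, Hdac10, Mbd3, Mta3, Gatad2b, Chd3, Hdac7, Mier1 and Tbl1xr1. Changes were modest: the members' median absolute log2 fold change was 0.36, against 0.40 over all tested genes, and only Hdac11 passed a 2-fold change. The panobinostat and untreated libraries did not overlap in 27 members (15 higher and 12 lower), which is 64.3% of them, against 51.4% of all tested genes. NuRD, and CoREST with MIER, held both rises and falls, and in NuRD 3 sets of paralogues that fill the same position held a rise and a fall each (Chd4 and Chd3, Mta1 and Mta3, Mbd2 and Mbd3).

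**Figure D1:**
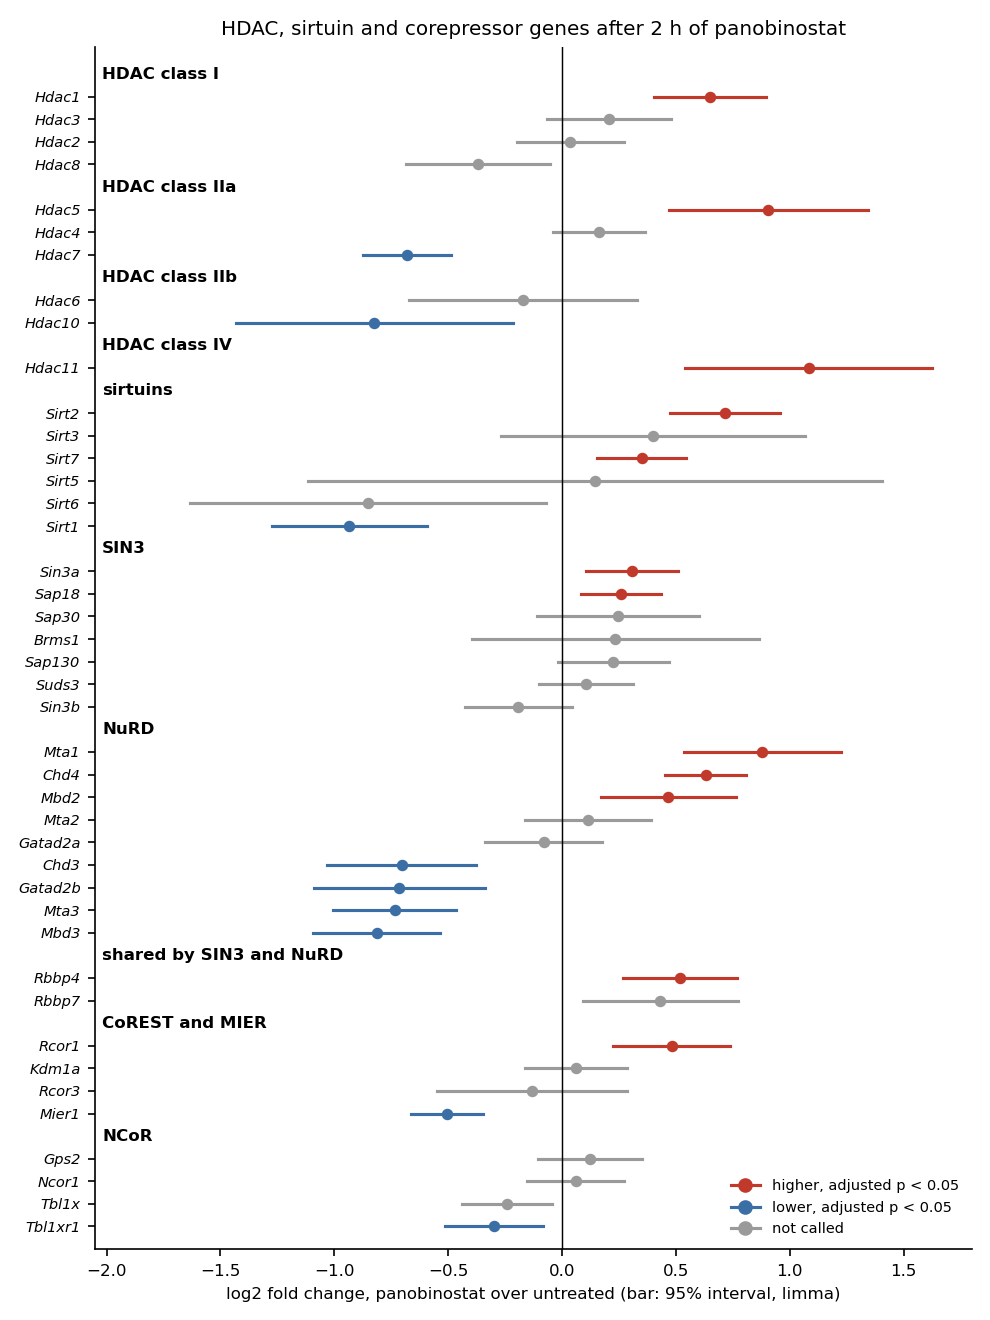
Log2 fold change of each of the 42 genes (horizontal axis, panobinostat over untreated), with its 95% interval from limma, grouped by class and ordered by size within a class. The 12 genes called higher lie right of 0 and the 9 called lower lie left of it; in NuRD, 3 called genes lie on the right and 4 on the left.

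Of 42 members 34 had a promoter in the RefSeq table used (GRCm38.p6), with 45 transcription starts. Each entry runs from 250 bases before to 50 bases after a start. The promoters of Hdac11, Hdac5, Sirt2 and Sirt1 are shown because these deacetylase genes had the largest rises and the largest fall among those with an entry. They are written 5' to 3' on the strand of the gene, with matches to 7 searched motifs in capitals. The intervals are chr6:91156565-91156864 (plus strand) for Hdac11, chr11:102230123-102230422 (minus) for Hdac5, chr7:28766502-28766801 (plus) for Sirt2 and chr10:63338986-63339285 (minus) for Sirt1.
Hdac11: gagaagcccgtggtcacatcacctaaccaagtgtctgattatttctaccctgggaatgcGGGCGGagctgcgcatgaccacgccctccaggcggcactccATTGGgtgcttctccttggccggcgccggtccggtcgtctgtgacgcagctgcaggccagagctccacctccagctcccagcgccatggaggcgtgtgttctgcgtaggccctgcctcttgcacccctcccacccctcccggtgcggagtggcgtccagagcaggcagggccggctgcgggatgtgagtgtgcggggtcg
Hdac5: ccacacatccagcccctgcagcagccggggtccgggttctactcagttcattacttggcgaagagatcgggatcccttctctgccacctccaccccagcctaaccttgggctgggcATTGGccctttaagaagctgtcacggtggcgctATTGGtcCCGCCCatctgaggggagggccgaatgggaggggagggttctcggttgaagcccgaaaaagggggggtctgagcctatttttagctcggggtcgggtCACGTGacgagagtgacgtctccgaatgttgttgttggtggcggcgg
Sirt2: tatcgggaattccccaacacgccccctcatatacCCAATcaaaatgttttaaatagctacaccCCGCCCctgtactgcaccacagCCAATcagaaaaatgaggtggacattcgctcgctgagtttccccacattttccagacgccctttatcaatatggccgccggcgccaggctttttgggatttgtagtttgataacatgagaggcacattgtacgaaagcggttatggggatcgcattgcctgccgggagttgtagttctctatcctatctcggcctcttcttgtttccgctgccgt
Sirt1: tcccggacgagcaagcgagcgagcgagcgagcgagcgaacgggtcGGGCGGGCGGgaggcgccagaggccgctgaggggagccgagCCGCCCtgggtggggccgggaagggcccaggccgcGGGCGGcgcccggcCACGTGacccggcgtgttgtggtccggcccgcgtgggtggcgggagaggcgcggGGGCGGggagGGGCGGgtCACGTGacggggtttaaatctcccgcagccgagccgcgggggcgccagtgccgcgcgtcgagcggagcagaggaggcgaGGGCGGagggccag
The motifs, searched on both strands, were the GC box (GGGCGG), the CCAAT box (CCAAT), the ETS motif (CCGGAAG), the E-box (CACGTG), the CRE (TGACGTCA), the palindromic NRF1 motif and the TATA box (TATAAA). Hdac11 held 1 GC box and 1 CCAAT box, Hdac5 1 GC box, 2 CCAAT boxes and 1 E-box, and Sirt2 1 GC box and 2 CCAAT boxes. Sirt1, the one of the 4 that fell, held 7 GC boxes, a pair of which overlap, and 2 E-boxes, with no CCAAT box in this window. It also had 47 CpG dinucleotides, against 22 in Hdac11, 18 in Hdac5 and 16 in Sirt2. This contrast is of the 4 shown promoters only. Over all starts of members the median CpG count was 23.5 for genes that rose and 22 for genes that fell.

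Across all matched members, a GC box was found in 11 of 12 promoters of genes that rose, in 8 of 11 of genes that fell and in 16 of 22 of genes not called. Among all 32851 RefSeq promoters 35.7% held one. These counts are of starts: the 12, 11 and 22 came from 10, 6 and 18 genes. Hdac7 alone gave 4 of the 11, and all starts of fallen genes that lacked a GC box were those of Hdac7. A CCAAT box was found in 9 of 12, 4 of 11 and 9 of 22 promoters of these groups, against 37.4% of all promoters. The ETS motif occurred in 1 of 12, 0 of 11 and 7 of 22, against 8.86% of all. Median CpG counts were 23.5, 22 and 24 for the 3 groups and 7 for all promoters. E-boxes were in 2 of 12, 1 of 11 and 0 of 22 (7.15% of all), NRF1 motifs in 0, 0 and 4 (4.603% of all), TATA boxes in 1, 2 and 2 (13.6% of all), and CREs in none of the 45 (1.79% of all). These are matches of letters in promoters that share genes where a gene has several starts, and no test was made. The values for all promoters were not limited to expressed or tested genes. The members were more highly expressed than all tested genes, so these values are not a matched background.

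Among the class I enzymes, 1 rose and none fell of 4. Hdac1 (chr4:129516104-129542713, minus strand; gene intervals are from GENCODE M21 on mm10), a catalytic subunit of SIN3, NuRD, CoREST and MIER, had 8.46, 8.26 and 8.43 log2 CPM in panobinostat libraries, against 7.88, 7.53 and 7.79 in untreated libraries. The groups did not overlap, and the level was 1.57-fold higher (log2 fold change 0.65 ± 0.11 SE, limma adjusted p = 0.00317). Hdac2, the partner enzyme in the same complexes, had 6.23, 5.94 and 6.09 log2 CPM in panobinostat and 6.11, 6.09 and 5.95 in untreated libraries. Its values overlapped and its log2 fold change had a 95% interval from -0.20 to 0.27. Of the summed Hdac1 and Hdac2 tags, Hdac1 made up 83.1% ± 0.633 in panobinostat and 76.2% ± 2.68 in untreated libraries (SD, n = 3 each).

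Neither of the other class I genes passed. Hdac3, the enzyme of NCoR, had 5.34, 5.07 and 5.41 log2 CPM in panobinostat libraries, against 5.17, 5.0 and 5.04 in untreated libraries, with overlap between the groups. Hdac8, which deacetylates the cohesin subunit SMC3, had 4.53, 4.94 and 4.83 log2 CPM in panobinostat and 5.02, 5.09 and 5.29 in untreated libraries. All 3 panobinostat values of Hdac8 lay below all untreated ones, yet the gene missed the threshold (-0.37 ± 0.14 SE on the log2 scale, limma adjusted p = 0.067).

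The class IIa enzymes, which shuttle between nucleus and cytoplasm and bind MEF2 transcription factors, gave 1 rise and 1 fall of 3 genes. Hdac7 (chr15:97792664-97844502, minus strand), the class IIa enzyme best known from thymocytes, was the class's highest in tags at 8.67, 8.65 and 8.79 log2 CPM in panobinostat libraries, against 9.44, 9.46 and 9.24 in untreated libraries. It fell to 0.623 of the untreated level with no overlap (log2 fold change -0.68 ± 0.08 SE, limma adjusted p = 0.00109). Hdac5 rose 1.87-fold, from few reads: 3.47, 3.47 and 3.11 log2 CPM in panobinostat, against 2.29, 2.36 and 2.69 in untreated libraries (limma adjusted p = 0.00803). Its promoter is one of those printed above. Hdac4 had 6.51, 6.44 and 6.30 log2 CPM in panobinostat and 6.26, 6.19 and 6.32 in untreated libraries, which overlap (95% interval of the log2 fold change -0.04 to 0.36). Since most class IIa tags were those of Hdac7, the 3 genes together gave 512.5 ± 15.3 CPM in panobinostat and 751.3 ± 50.7 CPM in untreated libraries (SD, n = 3 each). In GENCODE, the last 500 bases of an Hdac7 transcript overlap Slc48a1 on the other strand, and the strand setting of the counting was not given in the sources used here.

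In class IIb, Hdac10, which acts on acetylated polyamines, was low and fell. It had 1.98, 2.79 and 2.14 log2 CPM in panobinostat libraries, against 2.80, 3.35 and 3.24 in untreated libraries, where panobinostat library 2 (2.79) nearly touched untreated library 1 (2.80) (log2 fold change -0.82 ± 0.26 SE, limma adjusted p = 0.0399). Hdac10 no longer passed when panobinostat library 1 (log2 fold change -0.66) or 3 (-0.74), or untreated library 2 (-0.72) or 3 (-0.77), was left out. Hdac6, a cytoplasmic tubulin deacetylase, spanned 4.07 to 4.39 log2 CPM in panobinostat and 4.02 to 4.88 in untreated libraries, with a 95% interval of the log2 fold change from -0.67 to 0.33.

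Hdac11, the single class IV enzyme, which removes long-chain fatty acyl groups from lysine, had the largest rise of the members. Levels were 3.52, 3.07 and 3.09 log2 CPM in panobinostat libraries, against 1.85, 2.53 and 2.04 in untreated libraries, with no overlap. This was a 2.12-fold difference with a wide 95% interval on the log2 scale (0.54 to 1.62, limma adjusted p = 0.00933), from an estimated 57 to 69 reads in panobinostat and 27 to 39 reads in untreated libraries.

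**Figure D2:**
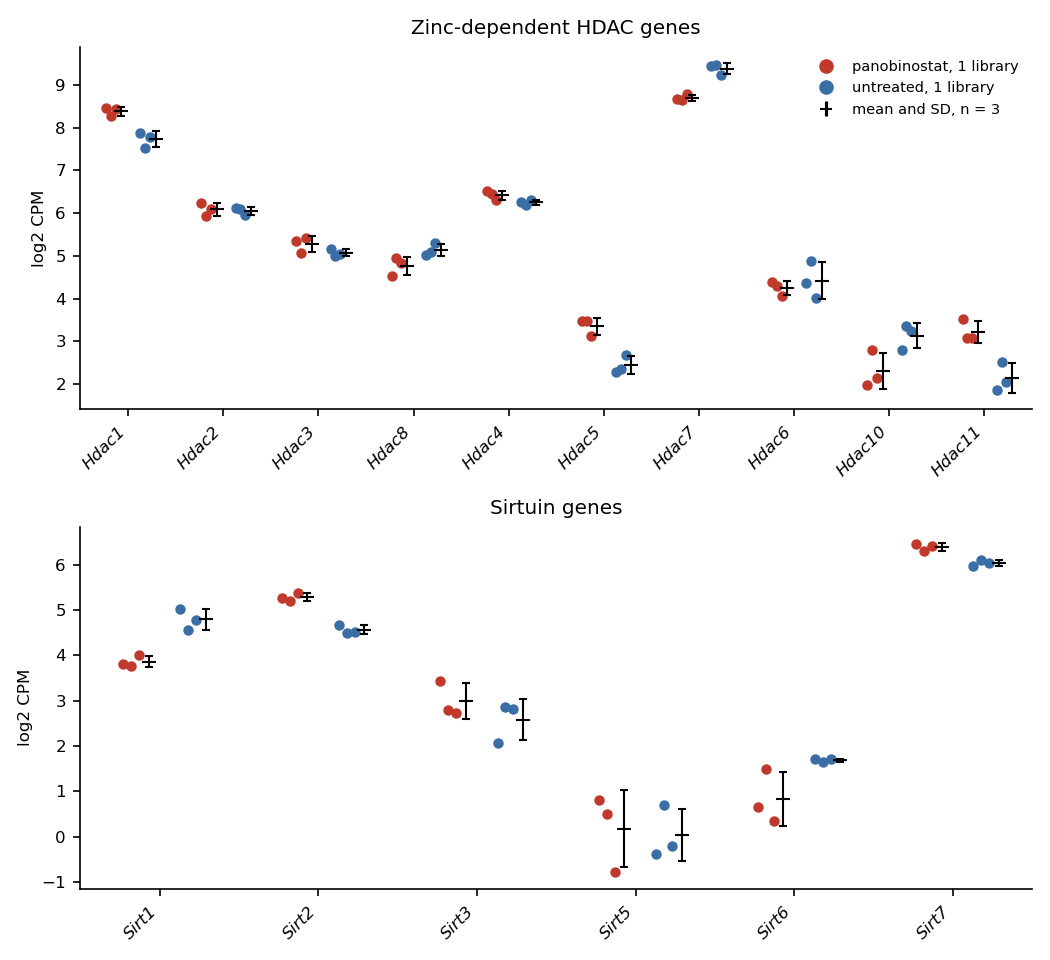
Log2 CPM (vertical axis) of the 10 zinc-dependent HDAC genes (top) and 6 sirtuin genes (bottom) in each library, with the mean and SD of 3 libraries. The panobinostat points lie above all untreated points for Hdac1, Hdac5, Hdac11, Sirt2 and Sirt7, and below them for Hdac7, Hdac8, Hdac10, Sirt1 and Sirt6.

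Of the 6 sirtuin genes 2 rose and 1 fell, a share equal to that of all members (50%), against 38.3% of all tested genes. Sirt1 (chr10:63319005-63381704, minus strand), a nuclear enzyme that deacetylates histones and p53, had 3.82, 3.76 and 4.0 log2 CPM in panobinostat libraries, against 5.03, 4.57 and 4.78 in untreated libraries. The groups were well apart, and the level was 0.523 of that in untreated cells (-0.93 ± 0.15 SE on the log2 scale, limma adjusted p = 0.00275), the largest fall of any member. Sirt2, mainly a cytoplasmic tubulin deacetylase, went the other way, with 5.26, 5.20 and 5.38 log2 CPM in panobinostat and 4.68, 4.49 and 4.52 in untreated libraries. It was 1.64-fold higher (log2 fold change 0.72 ± 0.10 SE, limma adjusted p = 0.00207).

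Sirt7, a nucleolar and chromatin enzyme that acts on histone H3, rose 1.27-fold, with 6.47, 6.30 and 6.41 log2 CPM in panobinostat, against 5.97, 6.11 and 6.05 in untreated libraries (limma adjusted p = 0.0147). That call was lost without panobinostat library 1 (log2 fold change 0.31) or 3 (0.34). Sirt6, a chromatin-bound deacetylase of histone H3, was near the floor of the table with an estimated 9 to 19 reads in panobinostat and 21 to 25 in untreated libraries. Its log2 CPM were 0.65, 1.48 and 0.35 in panobinostat and 1.70, 1.64 and 1.70 in untreated libraries, so the groups did not overlap but did not pass (limma adjusted p = 0.0817). Without panobinostat library 2 Sirt6 passed (log2 fold change -1.18). The mitochondrial genes Sirt3 and Sirt5 overlapped between the groups, with log2 fold changes of 0.40 (95% interval -0.27 to 1.07) and 0.15 (-1.12 to 1.41). The end of Sirt3 lies over Ric8a on the other strand, and the end of Sirt5 matches Wdr31 and several pseudogenes at over 95% identity, so reads of both are uncertain.

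The SIN3 complex is built on the scaffolds SIN3A and SIN3B. Of its 7 particular subunits 2 rose and 0 fell, and the largest log2 fold change in size was 0.31. The limma interval of Brms1 ran from -0.40 to 0.86, too wide to show that its change was small. Among the subunits shared with NuRD, Hdac1 (log2 fold change 0.65) and Rbbp4 (0.52) rose, while Hdac2 and Rbbp7 were not called. Sin3a had 6.32, 6.15 and 6.15 log2 CPM in panobinostat libraries, against 5.92, 5.94 and 5.84 in untreated libraries, without overlap (1.24-fold, limma adjusted p = 0.0272). Sin3b, its paralogue, had 7.16, 7.32 and 7.12 log2 CPM in panobinostat and 7.21, 7.48 and 7.49 in untreated libraries, and did not pass (log2 fold change -0.19 ± 0.10 SE). The Sin3a call was lost without any 1 of the panobinostat libraries (0.25, 0.33 and 0.33) and without untreated library 3 (0.27), while Sin3b passed without untreated library 1 (-0.28).

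Sap18, which also belongs to splicing-linked complexes, was tight within each group: 6.58, 6.57 and 6.56 log2 CPM in panobinostat libraries, against 6.38, 6.32 and 6.23 in untreated libraries (log2 fold change 0.26, limma adjusted p = 0.0308). This call held in only 1 of the 6 fits with a library left out, the one without untreated library 1, and its log2 fold change ranged from 0.22 to 0.29 over the 6. The last 500 bases of Sap18 are identical to those of the gene Sap18b, which has its own row, so how the counting divided reads among them is unknown and the Sap18 value is uncertain. Ska3 also lies over that end on the other strand. The remaining subunits Sap30, Sap130, Suds3 and Brms1 did not pass, with log2 fold changes from 0.10 to 0.25. Sap130 came nearest, at 4.68, 4.68 and 4.53 log2 CPM in panobinostat and 4.39, 4.35 and 4.47 in untreated libraries. Brms1 shares its end with another annotated gene on the same strand, and the antisense gene Man2c1os lies over the end of Sin3a.

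NuRD couples deacetylation to nucleosome remodelling, and 7 of its 9 particular genes were called, 3 higher and 4 lower. That is 77.8%, against 38.3% of all tested genes. The median absolute log2 fold change was 0.70, against 0.40 over all tested genes, and neither difference was tested. Chd4 (chr6:125095981-125130591, plus strand), the main ATP-dependent remodeller of the complex, had 10.55, 10.57 and 10.63 log2 CPM in panobinostat libraries, against 10.07, 9.86 and 9.92 in untreated libraries. All panobinostat values lay above all untreated ones, and the level was 1.55-fold higher (log2 fold change 0.63 ± 0.08 SE, limma adjusted p = 0.00107). Chd3, the alternative remodeller, had 4.69, 4.27 and 4.23 log2 CPM in panobinostat and 5.16, 5.11 and 5.04 in untreated libraries, also without overlap, and fell to 0.614 of the untreated level (limma adjusted p = 0.00706).

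The MTA proteins are the scaffolds that bind HDAC1 and HDAC2, and of their 3 genes 1 rose and 1 fell. Mta1 (chr12:113098278-113137206, plus strand) had 6.87, 6.93 and 7.06 log2 CPM in panobinostat libraries, against 6.42, 5.84 and 5.97 in untreated libraries (1.84-fold, limma adjusted p = 0.00364). Mta3 had 4.03, 3.90 and 4.05 log2 CPM in panobinostat and 4.59, 4.80 and 4.80 in untreated libraries (0.601 of the untreated level, limma adjusted p = 0.00282). Mta2 overlapped between the groups, at 6.12, 5.93 and 6.12 log2 CPM in panobinostat and 5.98, 5.73 and 6.12 in untreated libraries (95% interval of the log2 fold change -0.16 to 0.39). In shares of the summed MTA tags, Mta1 held 60.0% ± 2.02 in panobinostat and 43.3% ± 5.48 in untreated libraries, and Mta3 7.71% ± 0.276 and 17.2% ± 3.11 (SD, n = 3 each). Shares of tags need not equal shares of protein or of RNA molecules, since transcript ends may be captured unequally.

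The methyl-CpG binding family also went apart. Mbd2, which binds methylated DNA, had 4.64, 4.42 and 4.70 log2 CPM in panobinostat libraries, against 4.24, 4.0 and 4.11 in untreated libraries (1.38-fold, limma adjusted p = 0.0229). Mbd3 (chr10:80392539-80399550, minus strand), its mutually exclusive alternative in NuRD, which lacks strong binding to methylated DNA in mammals, had 4.87, 4.87 and 4.79 log2 CPM in panobinostat and 5.43, 5.84 and 5.70 in untreated libraries (0.568 of the untreated level, limma adjusted p = 0.00217). The Mbd3 values were the most even of NuRD genes within panobinostat libraries, with an SD of 0.04, as were those of Chd4. Of the 2 genes' summed tags Mbd2 made up 45.5% ± 3.08 in panobinostat and 25.7% ± 4.36 in untreated libraries (SD, n = 3 each). Mbd2 failed to pass with panobinostat library 1 (log2 fold change 0.44) or 3 (0.41), or untreated library 2 (0.41) or 3 (0.46), left out, whereas Mbd3, Chd3, Chd4, Mta1, Mta3 and Gatad2b were called in all 6 fits with a library left out.

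GATAD2 proteins link the MBD subunit to the remodeller. Gatad2b had 4.70, 4.83 and 4.36 log2 CPM in panobinostat libraries, against 5.09, 5.54 and 5.40 in untreated libraries, and fell without overlap (0.61 of the untreated level, limma adjusted p = 0.0115). Gatad2a overlapped, at 6.43, 6.10 and 6.21 log2 CPM in panobinostat and 6.24, 6.46 and 6.28 in untreated libraries. The histone chaperones RBBP4 and RBBP7, shared with SIN3, both lay higher, though only Rbbp4 passed. Rbbp4 had 8.08, 8.31 and 8.36 log2 CPM in panobinostat, against 7.91, 7.66 and 7.62 in untreated libraries (1.43-fold, limma adjusted p = 0.00831). Rbbp7 had 7.90, 7.82 and 7.96 log2 CPM in panobinostat, against 7.75, 7.13 and 7.52 in untreated libraries, and missed the threshold narrowly (log2 fold change 0.43 ± 0.15 SE, limma adjusted p = 0.0506). Rbbp7 passed without untreated library 1 (0.57), the untreated library nearest the panobinostat group on the first principal component. The ends of both chaperone genes lie over a gene on the other strand, Sync for Rbbp4 and Txlng for Rbbp7.

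**Figure D3:**
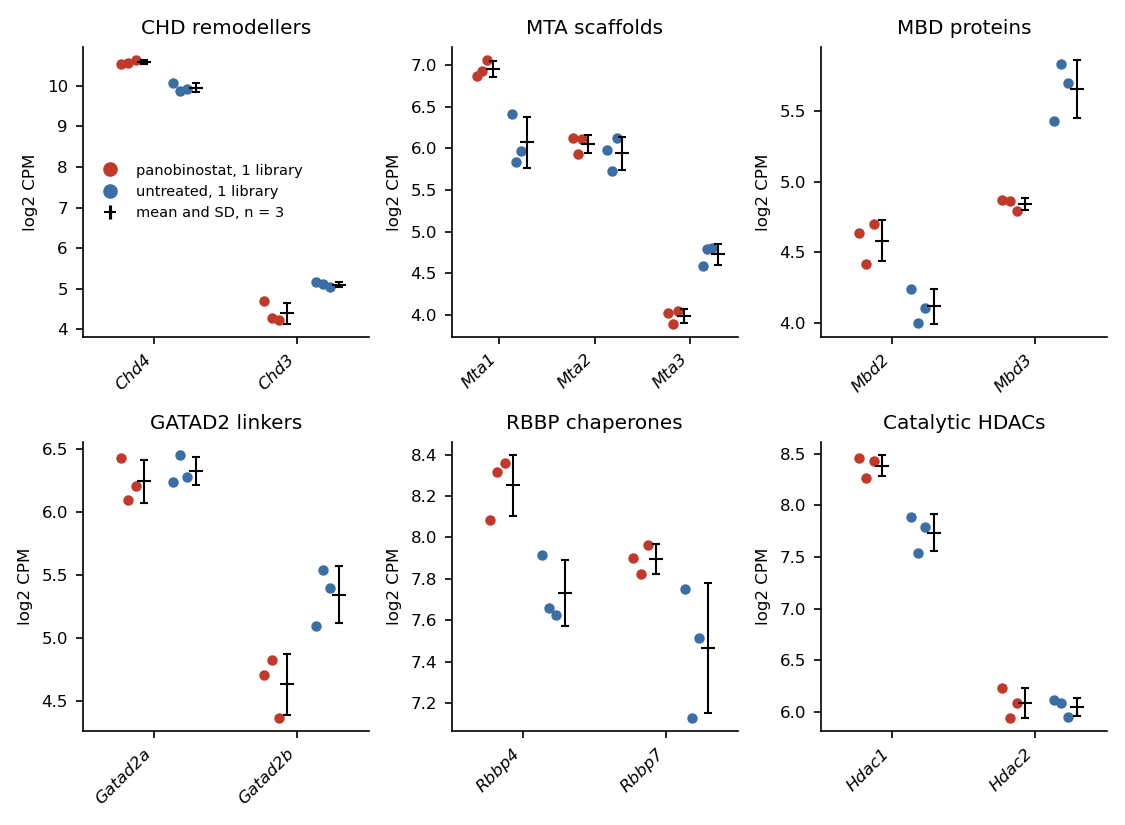
Log2 CPM (vertical axis, a separate range in each panel) of the paralogues that fill each position of NuRD, by library, with mean and SD of 3 libraries. Chd4, Mta1 and Mbd2 lie higher in panobinostat libraries while Chd3, Mta3, Mbd3 and Gatad2b lie lower; Rbbp4, Rbbp7 and Hdac1 lie higher too, and the Hdac2 points overlap.

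CoREST joins HDAC1 and HDAC2 to the histone H3 lysine 4 demethylase KDM1A through RCOR scaffolds, and MIER proteins carry the same deacetylases. Rcor1 had 7.29, 7.36 and 7.59 log2 CPM in panobinostat libraries, against 7.10, 6.82 and 6.87 in untreated libraries (1.40-fold, limma adjusted p = 0.0121). Rcor3 overlapped, at 3.69, 4.17 and 4.25 log2 CPM in panobinostat and 4.32, 3.96 and 4.22 in untreated libraries. Kdm1a also overlapped, with 5.94, 5.99 and 5.91 log2 CPM in panobinostat and 5.99, 5.94 and 5.72 in untreated libraries, with a 95% interval of its log2 fold change from -0.16 to 0.29. Mier1 fell to 0.704 of the untreated level, with 7.61, 7.56 and 7.55 log2 CPM in panobinostat, against 8.15, 8.08 and 8.02 in untreated libraries (log2 fold change -0.51 ± 0.07 SE, limma adjusted p = 0.00167).

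In the NCoR complex, 1 of 4 genes was called, and it fell. Ncor1, the scaffold that activates HDAC3, stood at 8.54, 8.38 and 8.40 log2 CPM in panobinostat and 8.52, 8.24 and 8.37 in untreated libraries, with a 95% interval of its log2 fold change from -0.15 to 0.27. Its WD40-repeat partners both lay lower. Tbl1xr1 had 6.67, 6.86 and 6.73 log2 CPM in panobinostat, against 6.97, 7.20 and 6.99 in untreated libraries (0.813 of the untreated level, limma adjusted p = 0.038). Tbl1x had 6.32, 6.29 and 6.18 log2 CPM in panobinostat, against 6.41, 6.56 and 6.55 in untreated libraries, and missed the threshold (limma adjusted p = 0.0549). Tbl1x passed without untreated library 1 (log2 fold change -0.29) and with array weights (-0.28). Tbl1xr1 missed the threshold when panobinostat library 1 (-0.26) or 3 (-0.29), or untreated library 2 (-0.23) or 3 (-0.33), was set aside. Gps2, a small subunit that restrains JNK signalling, ran from 6.14 to 6.19 log2 CPM in panobinostat and from 5.86 to 6.13 in untreated libraries, without overlap but far from the threshold (limma adjusted p = 0.351). Luzp1 lies over the end of Kdm1a and Ttc19 over that of Ncor1, both on the other strand.

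Whether paralogues changed in proportion was read from the difference of their log2 values within each library, for 13 pairs. In 10 of 13 pairs these differences did not overlap between panobinostat and untreated libraries; for single genes 51.4% did not overlap, and no background was computed for pairs. Chd3 minus Chd4 averaged -6.18 ± 0.29 in panobinostat and -4.85 ± 0.08 in untreated libraries (SD, n = 3 each), the largest difference between the groups of the 13 in size (-1.34). Mbd2 minus Mbd3 averaged -0.26 ± 0.18 in panobinostat and -1.54 ± 0.33 in untreated libraries, a difference of 1.28. Mta3 minus Mta2 differed by -0.85, Hdac7 minus Hdac4 by -0.84, Mta1 minus Mta2 by 0.77, Hdac5 minus Hdac4 by 0.74 and Hdac1 minus Hdac2 by 0.61. Pairs whose differences overlapped were Rbbp4 with Rbbp7, Tbl1x with Tbl1xr1, and Hdac6 with Hdac10. The exact permutation test of 3 against 3 cannot give a two-sided p below 0.1, which each of the 10 pairs reached (0.13 after Benjamini-Hochberg adjustment over 13), so no pair could pass 0.05.

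**Figure D4:**
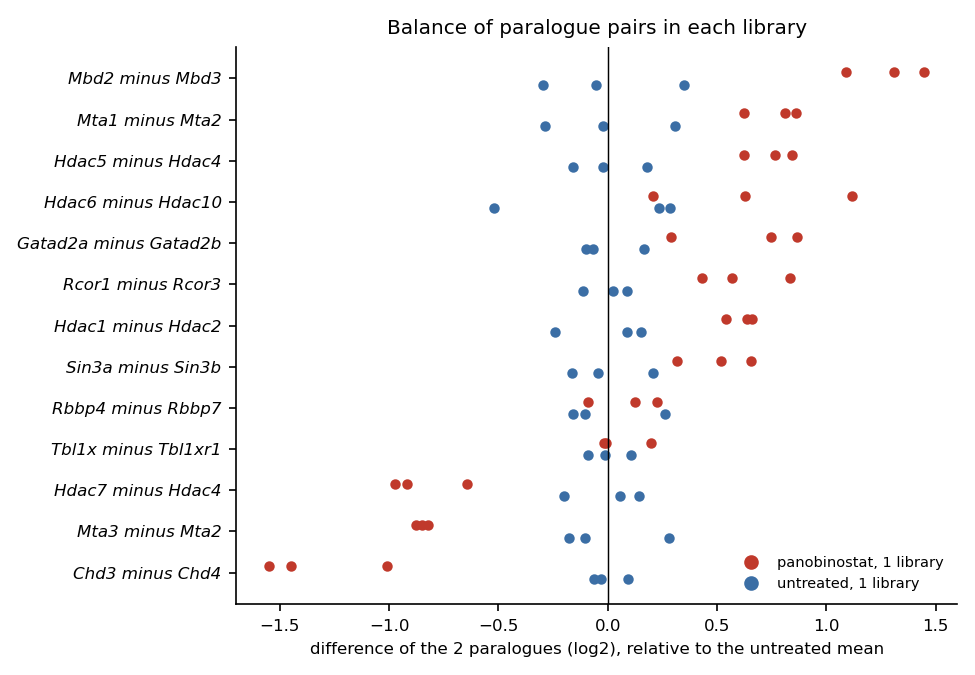
Difference of the log2 CPM of each of 13 paralogue pairs in each library (horizontal axis), set relative to the untreated mean of that pair, so that untreated points scatter around 0. In 10 pairs the 3 panobinostat points lie wholly to one side of the 3 untreated points; Chd3 minus Chd4 (left) and Mbd2 minus Mbd3 (right) lie farthest out.

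Other genes of the same machinery came from 9 lists holding 83 genes, of which 75 were tested. They gave 13 rises and 18 falls, or 41.3%, near the 38.3% of all tested genes. Hdac9, Sirt4, Chd5, Sall4, Nr1d1, Prkd1 and Nmnat2 had no row. The DNA-binding factors and adaptors that recruit CoREST and MIER complexes gave 6 falls and 1 rise of 15 tested, with a median log2 fold change of -0.11. Gfi1, a repressor that recruits KDM1A through RCOR1, had 4.83, 4.76 and 4.89 log2 CPM in panobinostat libraries, against 6.32, 5.79 and 6.12 in untreated libraries (0.419 of the untreated level, limma adjusted p = 0.000808). Its relative Gfi1b, best known from erythroid and megakaryocytic cells, had 2.61, 2.59 and 1.57 log2 CPM in panobinostat, against 3.65, 3.87 and 3.82 in untreated libraries (limma adjusted p = 0.0055). Klf1, an erythroid marker, was also lower (3.16 log2 CPM on average in panobinostat and 4.48 in untreated libraries). The summed level of all 6 erythroid markers averaged 6454 CPM in panobinostat and 7213 CPM in untreated libraries, and its ranges overlapped. The part of erythroid cells in the Gfi1b result was not tested. The repressor gene Rest had 7.61, 7.41 and 7.40 log2 CPM in panobinostat, against 8.06, 8.01 and 8.0 in untreated libraries (limma adjusted p = 0.00205). Mier3, a paralogue of Mier1, fell to 0.63 of the untreated level (limma adjusted p = 0.0011). The remaining paralogue, Mier2, named after its values were seen, was not called and overlapped between the groups (log2 fold change -0.02, limma adjusted p = 0.899).

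Of 9 tested NCoR partners 1 rose and 2 fell. The corepressor genes Rere (log2 fold change 0.41 ± 0.11 SE) and Aes (-0.37 ± 0.11) were among those called (limma adjusted p = 0.0188 and 0.0355). Among 10 SIN3 partners 3 rose and 2 fell, with Arid4b (0.51 ± 0.08) and Arid4a (0.38 ± 0.08) higher and the O-GlcNAc transferase gene Ogt (-0.59 ± 0.11) and Sap30l (-0.67 ± 0.18) lower. Of 6 tested NuRD partners 2 rose, Zfp687 (0.73 ± 0.10) and Cdk2ap2 (0.50 ± 0.11), and 2 fell, Zmynd8 (-0.80 ± 0.15) and Cdk2ap1 (-0.63 ± 0.16). Cdk2ap1 and Cdk2ap2 are paralogues that went opposite ways. Other related partner genes went the same way: Arid4a and Arid4b rose, and Gfi1 and Gfi1b fell. How often paralogues part over all genes was not computed. MiDAC, another HDAC1 and HDAC2 complex, gave 1 rise of 3, that of Elmsan1 (0.68 ± 0.19).

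Lymphoid factors known to bind NuRD or other HDAC complexes gave 2 rises and 5 falls of 14 tested, with a median log2 fold change of -0.01. The Ikaros family genes Ikzf1 (6.05, 5.96 and 6.04 log2 CPM in panobinostat, against 6.64, 6.46 and 6.72 in untreated libraries) and Ikzf3 (5.97, 5.65 and 5.75, against 6.82, 6.38 and 6.51) fell (limma adjusted p = 0.00271 and 0.00402). Runx3 fell as well (log2 fold change -0.64 ± 0.10) and Zbtb7a rose (0.38 ± 0.08). Of 10 tested MEF2 and kinase genes that act with class IIa HDACs, Mef2d (0.43 ± 0.10) and Mark3 (0.29 ± 0.09) rose and none fell. Among 8 tested genes of NAD synthesis and sirtuin control, the NAD kinase gene Nadk rose (0.73 ± 0.18) and Ccar2, whose product DBC1 inhibits SIRT1, fell (-0.62 ± 0.15).

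Of the partner genes named here 8 lost their call when 1 library was left out. Without panobinostat library 1 these were Sap30l (-0.67), Aes (-0.39), Elmsan1 (0.68) and Nadk (0.63), and without library 2 Rere (0.41), Aes (-0.38), Elmsan1 (0.71), Mark3 (0.28) and Ccar2 (-0.59). Without panobinostat library 3 they were Sap30l (-0.61), Rere (0.35), Aes (-0.32), Elmsan1 (0.66) and Mark3 (0.24). Without untreated library 1 it was Mark3 (0.26), and without library 2 Rere (0.36), Aes (-0.30) and Mark3 (0.29). Without untreated library 3 they were Sap30l (-0.71), Cdk2ap1 (-0.57), Rere (0.36), Aes (-0.32), Elmsan1 (0.71), Mark3 (0.31) and Ccar2 (-0.62).

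Against all tested genes the members were well expressed but not unusual in the size of their change. Their median level was 5.96 log2 CPM, against 4.16 for all tested genes, and their median log2 fold change was 0.12, against -0.01. Chd4, at the upper end, and Hdac11, Hdac5 and Hdac10, toward the lower end, were all called. Sirt5, Sirt6, Brms1 and Sirt3, also toward the lower end, were not called. Members not called also included genes of middling to high level, such as Ncor1, Suds3, Kdm1a and Hdac2.

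**Figure D5:**
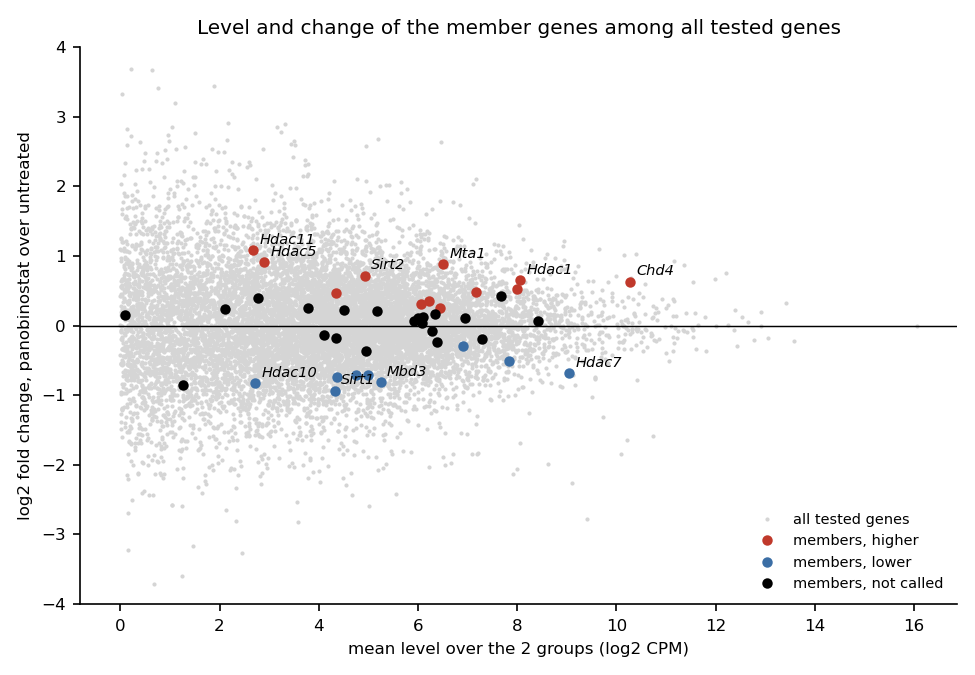
Mean level (horizontal axis, log2 CPM) and log2 fold change (vertical axis, panobinostat over untreated) of all 12554 tested genes in grey, with the 42 members in colour by call; 4 genes beyond 4 in size are not drawn. The members lie within the cloud of all genes, between -0.93 (Sirt1) and 1.08 (Hdac11).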

How the data were processed

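The authors deposited 1 table of log2 values for 13185 gene rows and 6 libraries. Per the submitters' processing notes, cutadapt 1.9, HISAT2 2.1.0, featureCounts (Subread 1.5.0) and limma were used with build mm10; no annotation, strand setting or filter is named there. Per the labels' protocols, QuantSeq 3' mRNA libraries were made from 100 ng of total RNA. That the deposited log2 values are quantile-normalized CPM was inferred: powers of 2 summed to between 994114 and 994182 per library, and for 87.6% of ranks all 6 sorted values lay within 0.05 of their mean. All 6 columns were mapped to a sample.

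Tested genes had a mean log2 value of 0 or more (631 rows left out, no member among them) with limma 3.58.1 (lmFit and eBayes, trend on) under R 4.3.3, with Benjamini-Hochberg adjustment over 12554 genes, a threshold of 0.05 and no pseudocount. Intervals are limma's 95% intervals. Values after ± are SE beside a log2 fold change and SD beside a mean. Reads per CPM were estimated from 200 steps between tied low values. Without molecular identifiers, reads cannot be counted as separate molecules. Three-prime ends (last 500 bases, GENCODE M21) were searched for copies with blastn 2.17.0 at 95% identity over at least 100 bases. Python 3.11.15, pandas 2.3.3 and matplotlib 3.10.9 were used. On simulated data for this comparison (12554 genes) 43 of 100 genes changed by 1 and 9 of 100 changed by 0.5 (log2) were called, and 3 of 12354 unchanged genes. The simulation changed far fewer genes than the 38.3% called in the data, which makes the adjusted threshold stricter. Its shares are therefore not the power of this comparison.

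The members and lists were chosen with earlier results of these data known. All members were described, and of each partner list up to 4 called genes with the smallest adjusted p; a gene that this rule names is not reported here. Alternatives were other filters, scalings, spread models, weights, thresholds, a pseudocount of 1, a replicate block and each library left out.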

Additional observations from a re-analysis of the deposited data

How the results depend on the processing

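No member or named partner gene changed direction with a call under any alternative run. Of 21 called members, 15 (8 higher, 7 lower) were called in all 6 fits with 1 library left out. Over these fits members higher ranged from 8 to 13 and members lower from 7 to 11. Partner genes higher ranged from 7 to 18 and lower from 13 to 18, and all genes higher from 1582 to 2677 and lower from 1634 to 2556. Paralogue pairs apart numbered 10 to 11. This last count could only stay at 10 or rise, because groups that do not overlap stay apart when a library is left out. It therefore says nothing about how stable the pairs are. The lowest count of all genes higher came without panobinostat library 3 (1582, against 2416), and partner genes higher fell to 7 without panobinostat library 2 and to 8 without library 3, against 13. At an adjusted p threshold of 0.01, 7 members were higher, 4 partner genes were higher, and 1240 of all genes were higher and 1273 lower. The filter, trimmed mean scaling, trend, robust fit, array weights and pseudocount kept every such count within 1.5 times. Hdac8 gained a call with the robust fit (limma adjusted p = 0.0489) and with array weights (0.019). Rbbp7 gained one with the robust fit (0.0372), array weights (0.0126) and the pseudocount (0.0493). Sin3b (0.0338) and Tbl1x (0.0141) gained theirs with array weights. With a replicate block 11 members were higher and 9 lower: Sin3a (adjusted p = 0.0512) and Sap18 (0.0643) lost their calls and Rbbp7 (0.0379) gained one, and the named partners Aes (0.061) and Mark3 (0.056) lost theirs. Deviations of same-numbered libraries had correlations of -0.04, 0.10 and -0.01, inside the range of other-numbered ones (-0.16 to 0.15). With 3 libraries per group this cannot decide whether the numbers, taken from the column names, pair the libraries. Without the trend, Hdac10 (adjusted p = 0.0537), Sin3a (0.0583), Sap18 (0.0711), Tbl1xr1 (0.0866), Sap30l (0.0549), Rere (0.051), Aes (0.0739) and Mark3 (0.0721) lost their calls; the cause was not tested. Depth limits Sirt5 and Sirt6 most, at an estimated 4 to 25 reads per library.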
